A study of Mus musculus with 48 samples.

Results

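Lung metastasis cells that had passed through a lymph node were set against cells taken from primary tumors of the mammary fat pad. All of them derive from 4T1, a mouse mammary carcinoma line from BALB/c mice that spreads from the fat pad to lymph nodes and lung. The comparison was defined by the labels: the arrays of AxLN-LuM sub-clones, grown out of lung metastases in mice whose axillary lymph node had received the tumor cells (3 sub-clones, 9 arrays), against those of MFP sub-clones, grown out of fat pad tumors (2 sub-clones, 6 arrays), leaving out every array titled as removed. These were 15 of the 48 arrays and 5 of the 13 sub-clones of the series. The AxLN-LuM sub-clones were taken at days 14, 36 and 43, each numbered 1 in its label, and carried the mCherry and Renilla luciferase reporter (mCh/rL). The MFP sub-clones, numbered 1 and 2, were taken at day 28 and carried the GFP and firefly luciferase reporter (GFP/fL). No drug treatment distinguished the groups. The tumor cells were recovered from dissociated tissue by growth in 6-thioguanine, to which 4T1 is resistant, so what was measured is RNA of cells in culture after recovery and not RNA of the tumor in place.

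Several features of the design limit what the groups stand for. Site and reporter line changed together: all AxLN-LuM cells derived from 4T1-mCh/rL and all MFP cells from 4T1-GFP/fL. Line and site could therefore not be separated. Taking each group against its own parental line took out only the difference between the parental lines. A different response of the lines to growth in the mouse or to recovery stayed mixed with site. Collection day differed between the groups and among the AxLN-LuM sub-clones. The 3 arrays of a sub-clone, which the labels call biological replicates, belong to 1 derived population, so the sub-clone was the replicate. The labels do not name the mice. The AxLN-LuM sub-clones were taken on different days and carry different source names, which points to separate mice. The MFP sub-clones, both of day 28, are labeled as tumors 1 and 2 with no mouse given. The p-values measure only the spread between these sub-clones. With 3 sub-clones against 2, a single unusual sub-clone weighs heavily, and the values of each sub-clone are therefore given.

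In spread from a primary tumor, cells that seed a distant organ from a node have left the primary site. They have then survived in the node and crossed into the blood. The AxLN-LuM cells here were injected into the node and so skipped the first step of this route. Genes known to matter along this route include adhesion molecules of the integrin and immunoglobulin families, enzymes that open the extracellular matrix, and secreted factors that recruit or mobilize myeloid cells. 4T1 tumors in particular are known for secreting colony-stimulating factors and for filling the blood and spleen with granulocytes. Antigen presentation genes and interferon responses set how visible a tumor cell is to T cells, which are abundant in a node.

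The platform was the Affymetrix Mouse Gene 2.1 ST array, which gives 1 summarized brightness (intensity) per probe set. The 48 arrays held 41345 probe sets each, with array sums between 6414229 and 6658225 and medians between 8.53 and 9.15. Probe sets with 1 gene symbol that belonged to protein-coding genes covered 18964 genes, and 11565 of them had a mean over all arrays above an intensity of 8.61, the middle of all probe sets, and were tested. Values below are log2 intensities minus the average of the GFP/fL and mCh/rL parental arrays of the same plate, called the log2 level here, so 0 is that parental mean and 1 is a doubling. The AxLN-LuM sub-clones of days 14 and 36 lay on plate 1 and that of day 43 on plate 2, while MFP 2 lay on plate 1 and MFP 1 had 1 array on plate 1 and 2 on plate 2. The plates of the AxLN-LuM arrays and of MFP 2 are not in the labels and were read from the values. All 10 markers of mammary carcinoma epithelium were above the filter, with summed intensities of 10997 to 15408 in the AxLN-LuM arrays and 11479 to 13895 in the MFP arrays. Of host cell markers, 6 of 20 for leukocytes and macrophages, 1 of 13 for lymphocytes, 1 of 10 for endothelium, 3 of 10 for fibroblasts, 2 of 10 for lung epithelium and 1 of 8 for adipocytes passed the filter.

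The widest gaps between the groups lay in genes that were low in the AxLN-LuM cells. The 12 genes with the most negative differences among those whose arrays did not overlap, whether measured from the mean of both parental lines or from the own line, were Lcn2, Itgb2, Icam1, Csn3, H2-Ab1, Csf3, Cyth4, Dzip1, Gch1, Slc39a4, Cp and Hpse, with differences of -3.59 to -2.05 on the log2 scale. The 12 with the most positive differences, Epha4, S100a3, Nradd, Spaca6, Ano1, Plxnb1, Kcnn4, Mrgpre, Notch1, Megf9, Antxr2 and Cfap298, spanned only 0.56 to 1.48. These 24 genes were chosen for the size and separation of their values, so their separation is a description and was not tested further. Between sub-clones, limma with Benjamini-Hochberg adjustment called 0 of 11565 genes (0%), and the lowest adjusted p was 0.356. At an unadjusted p of 0.05, 464 genes passed, fewer than the 578 that the threshold alone would give, and 334 of them were lower (2.89%) and 130 higher (1.12%) in AxLN-LuM. The sub-clone means did not overlap for 861 genes that were lower (7.44%) and 852 that were higher (7.37%) in AxLN-LuM, and the arrays did not overlap for 221 (1.91%) and 110 (0.951%). No gene named below therefore passed the adjusted test of AxLN-LuM against MFP, and higher and lower refer to the measured values. Of all tested genes, 6001 were higher and 5564 lower in AxLN-LuM. Counts within the gene lists below are to be read beside this split and the shares above.

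**Figure D1:**
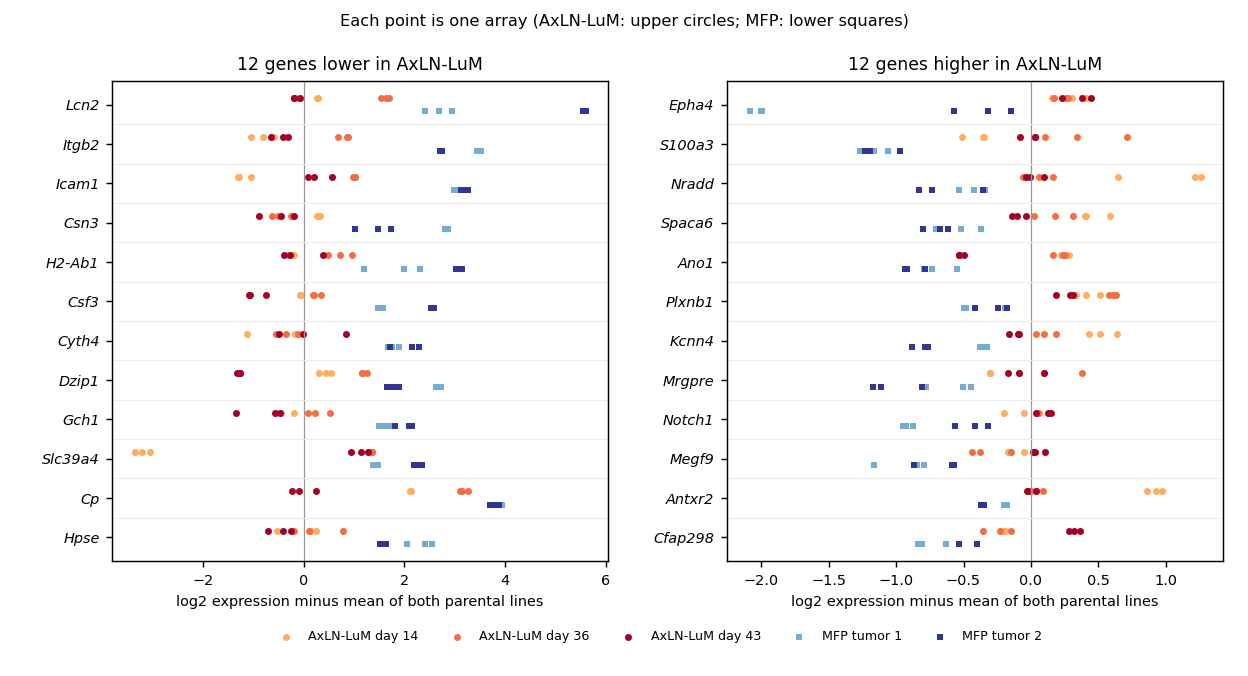
Log2 level (log2 intensity minus the parental mean of the plate, horizontal axis) of the 12 genes furthest below and the 12 furthest above MFP in AxLN-LuM among those whose arrays do not overlap (rows), with 1 point per array, 9 AxLN-LuM and 6 MFP. The MFP arrays of the first 12 genes lie far above 0 while the AxLN-LuM arrays lie nearer to it, and the gaps of the other 12 genes are narrower, from 0.56 to 1.48 between the group means.

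Lcn2, which encodes lipocalin 2, an iron-siderophore binding protein secreted in acute inflammation, had the largest difference of all tested genes. Its log2 level was -0.20 at the lowest, 0.26 at the median and 1.70 at the highest over the 9 AxLN-LuM arrays, against 2.40, 4.24 and 5.60 over the 6 MFP arrays. By sub-clone it was 0.14, 1.63 and -0.16 at days 14, 36 and 43 in AxLN-LuM, and 2.68 and 5.57 in MFP 1 and 2. All AxLN-LuM arrays thus lay below all MFP arrays, and the MFP sub-clones differed from each other by more than the AxLN-LuM sub-clones did. The difference was -3.59 (SE 0.82, limma unadjusted p = 0.00224).

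Acute-phase and lipocalin genes shared this direction. Of 10 measured members, 9 were lower and 1 was higher in AxLN-LuM, 5 were lower at an unadjusted p of 0.05 by limma, and the median difference was -1.68, beside 0.01 over all genes. Cp, the copper-binding ferroxidase ceruloplasmin, spanned -0.23 to 3.26 over the AxLN-LuM arrays with a median of 2.12, and 3.70 to 3.94 over the MFP arrays with a median of 3.85. The day 43 sub-clone accounts for the low end, at -0.03, while days 14 and 36 lay at 2.12 and 3.17. Steap4, a metalloreductase induced by inflammatory cytokines, had levels of -0.22, -0.10 and -0.08 in the AxLN-LuM sub-clones, against 0.33 in MFP 1 and 4.77 in MFP 2, so its difference of -2.68 came almost wholly from 1 MFP sub-clone. Slpi, a secreted leukocyte protease inhibitor, overlapped between the groups, with 3.63, 2.43 and 0.01 in AxLN-LuM against 4.22 and 3.47 in MFP. The list as a whole leaned on MFP 2: its median level was 3.43 there and 0.39 in MFP 1, and without MFP 2 the median difference was -0.41 with 2 members higher and 8 lower.

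Promoter sequence was available for 20 of 25 genes, the 24 leading genes and Txnip, which is described further on, and for Steap4, which is not a leading gene. The windows printed here belong to the gene with the largest difference (Lcn2), an adhesion receptor with a wide gap (Icam1), an acute-phase gene high in 1 of the MFP sub-clones (Steap4) and the gene called against the own parental lines (Txnip). Each is a RefSeq window of mouse assembly GRCm38.p6 that runs from 250 bases before to 50 bases after an annotated start, 5′ to 3′ on the gene's strand: chr2:32387690-32387989 on the minus strand for Lcn2, and, on the plus strand, chr9:21015690-21015989 for Icam1, chr5:7960222-7960521 for Steap4 and chr3:96557707-96558006 for Txnip. Capitals mark matches to 7 short motifs searched on both strands.
Lcn2: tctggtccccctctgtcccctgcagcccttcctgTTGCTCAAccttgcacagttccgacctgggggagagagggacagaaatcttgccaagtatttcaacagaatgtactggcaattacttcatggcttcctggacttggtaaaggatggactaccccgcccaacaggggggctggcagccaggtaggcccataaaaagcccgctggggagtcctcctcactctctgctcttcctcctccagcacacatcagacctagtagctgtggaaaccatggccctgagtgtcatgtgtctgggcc
Icam1: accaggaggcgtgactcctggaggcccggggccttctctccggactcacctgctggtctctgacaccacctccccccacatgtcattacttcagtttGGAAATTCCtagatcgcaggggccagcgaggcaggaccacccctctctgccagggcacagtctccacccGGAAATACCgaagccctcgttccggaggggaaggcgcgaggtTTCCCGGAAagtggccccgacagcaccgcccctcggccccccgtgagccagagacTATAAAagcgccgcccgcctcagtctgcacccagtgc
Steap4: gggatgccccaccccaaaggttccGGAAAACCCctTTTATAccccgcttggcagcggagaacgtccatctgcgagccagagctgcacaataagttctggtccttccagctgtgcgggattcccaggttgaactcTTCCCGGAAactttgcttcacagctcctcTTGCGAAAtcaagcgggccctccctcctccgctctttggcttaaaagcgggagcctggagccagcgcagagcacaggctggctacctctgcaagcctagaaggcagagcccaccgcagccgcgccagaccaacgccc
Txnip: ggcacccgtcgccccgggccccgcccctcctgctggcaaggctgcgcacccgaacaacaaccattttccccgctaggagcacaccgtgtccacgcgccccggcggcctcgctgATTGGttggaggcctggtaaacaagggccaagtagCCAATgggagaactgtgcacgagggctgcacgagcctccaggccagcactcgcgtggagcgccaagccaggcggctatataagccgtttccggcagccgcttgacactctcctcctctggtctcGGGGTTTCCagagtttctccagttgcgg

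The capitals in the Lcn2 window are a match to the C/EBP motif (TTGCNNAA). Those in the Icam1 window are 2 matches to the NF-kB motif (GGNNTTTCC), a STAT motif (TTCNNNGAA) and, past the annotated start, a TATA box (TATAAA). The Steap4 window holds 1 match each to the NF-kB motif, the TATA box, the STAT motif and the C/EBP motif. The Txnip window holds 2 CCAAT boxes (CCAAT), 1 on each strand, and an NF-kB motif past the start. No matches overlapped in these windows. Over 32851 windows of the same length, 10.8% held the C/EBP motif, 8.3% the STAT motif, 5.82% the NF-kB motif, 13.6% the TATA box and 37.4% the CCAAT box. The interferon-stimulated response element (TTCNNTTTC, 8.56% of windows) and the E-box (CACGTG, 7.15%) were searched as well. Of the 20 genes with a window among the 24 leading genes and Txnip, Steap4 not counted, 7 had a CCAAT box, 5 a TATA box, 3 each a STAT motif, an E-box and an NF-kB motif, 2 a C/EBP motif and 1 an interferon-stimulated response element. Of these 20 genes 17 had 1 window, and a gene with several was counted if any of them matched. These counts are thus per gene, while the percentages are per window. Longer forms of the NF-kB motif and the response element, with 1 more fixed base at the 5′ end, were searched first and matched in none of these 20 genes, while the longer NF-kB form matched in Steap4, whose window was chosen after its matches were seen. Such matches describe letters only and do not show that a factor binds there.

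Adhesion receptors of leukocyte type were the next widest gap. Itgb2, the beta 2 integrin chain that leukocytes pair with several alpha chains, had log2 levels of -1.05, -0.42 and 0.88 (lowest, median and highest array) in AxLN-LuM, against 2.70, 3.10 and 3.51 in MFP. Icam1, an immunoglobulin-family ligand of beta 2 integrins, had -1.31, 0.20 and 1.02 in AxLN-LuM, against 2.98, 3.15 and 3.27 in MFP. For both genes the MFP arrays formed a band around 3 on the log2 scale, and the AxLN-LuM sub-clones spread around 0, lowest at day 14 and highest at day 36. Their differences were -3.26 (SE 0.48, limma unadjusted p = 0.000138) and -3.12 (SE 0.78, p = 0.00393). Cyth4, a guanine nucleotide exchange factor for ADP-ribosylation factors that is best known from blood cells, had -1.13, -0.17 and 0.83 in AxLN-LuM, against 1.68, 1.83 and 2.28 in MFP.

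Because Itgb2 and Cyth4 are best known from leukocytes, the leukocyte markers are given beside them. The summed intensity of the 20 leukocyte and macrophage markers was 261 to 635 in AxLN-LuM arrays and 1453 to 1993 in MFP arrays, and without Itgb2 it was 181 to 365 in AxLN-LuM and 248 to 509 in MFP. Ptprc, which encodes the pan-leukocyte antigen CD45, had intensities of 4.4 to 7.3 in AxLN-LuM and 4.0 to 6.1 in MFP, and Tyrobp had 6.2 to 10.5 in AxLN-LuM and 4.7 to 11.4 in MFP, so both overlapped and lay near or below the filter. Itgb2 itself spanned 71.8 to 274.6 in AxLN-LuM and 969.6 to 1740.3 in MFP. Among the 6 markers above the filter, Itgb2 was the 1 whose arrays did not overlap. In RNA of a bulk culture, fewer cells of a type and less RNA per cell cannot be told apart, and the part of host cells in the Itgb2 and Cyth4 values was not tested.

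The other integrins did not share the shift. Of 16 measured integrin chains, 6 were higher and 10 lower in AxLN-LuM, 1 (Itgb2) had an unadjusted p under 0.05, and the median difference was -0.19. Itgb3, the beta 3 chain, had a difference of -1.25 with overlapping arrays, since MFP 1 stood at 0.50 and MFP 2 at 2.17. Itgb4, the beta 4 chain of hemidesmosomes, was the most positive at 0.66, and its sign turned within plate 2, where it was -0.31.

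Secreted cytokines and colony-stimulating factors were mostly lower in AxLN-LuM: 17 of 23 were lower and 6 higher, 3 of the lower ones with an unadjusted p under 0.05, and the median difference was -0.31. Csf3, which encodes the granulocyte colony-stimulating factor G-CSF, had log2 levels of -1.08, -0.08 and 0.35 in AxLN-LuM, against 1.47, 2.05 and 2.58 in MFP. The difference was -2.31 (SE 0.41, limma unadjusted p = 0.000435), and both MFP sub-clones, at 1.52 and 2.56, lay above every AxLN-LuM sub-clone, of which day 43 was lowest at -0.97. Csf2, encoding GM-CSF, differed by -1.93, with sub-clones at -0.12, -0.51 and 0.73 in AxLN-LuM against 0.99 and 2.93 in MFP. The sub-clones thus lay apart, while the single arrays overlapped, reaching 0.85 in AxLN-LuM and starting at 0.64 in MFP. Il23a, which encodes the p19 chain of interleukin 23, had -0.70 to 0.66 in AxLN-LuM arrays and 0.73 to 1.06 in MFP arrays, a narrow separation.

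Il1a, the alarmin interleukin 1 alpha, behaved differently, since it divided the sub-clones within each group. It stood at -5.05, 0.51 and -0.18 in AxLN-LuM at days 14, 36 and 43, against -2.75 in MFP 1 and 2.82 in MFP 2. The group difference of -1.61 had an SE of 1.90, and its sign turned when MFP 2 was left out.

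Chemokines and their receptors leaned the same way, with 18 of 19 members lower, 1 higher and a median of -0.60, yet none had an unadjusted p under 0.05. Ccl2, the monocyte attractant MCP-1, varied widely, at -0.82, 4.58 and 1.32 in AxLN-LuM against 4.07 and 5.18 in MFP, so the day 36 metastasis reached the MFP range. The neutrophil attractants Cxcl1 and Cxcl5 were high in MFP 2 alone, at 2.68 and 3.55, while MFP 1 lay at -0.49 and -0.81. Ccl17, which attracts T cells through the receptor CCR4, likewise stood at 3.90 in MFP 2 and at -0.03 in MFP 1, against 0.12, 0.13 and -0.09 in AxLN-LuM. Without MFP 2 the chemokine median was -0.09, with 8 members higher and 11 lower.

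Matrix-degrading enzymes and their inhibitors had 19 of 23 members lower and 4 higher in AxLN-LuM, with a median of -0.29. Of the 23, 6 were lower with an unadjusted p under 0.05, beside 2.89% of all tested genes. Their arrays did not overlap for 5 genes, all lower, beside 1.91% of all tested genes. Mmp13, a collagenase, had log2 levels of -0.33, 0.29 and 1.25 in AxLN-LuM, against 1.81, 2.39 and 2.72 in MFP. Hpse, which encodes heparanase, the enzyme that cleaves heparan sulfate, had -0.72, -0.20 and 0.78 in AxLN-LuM, against 1.51, 1.85 and 2.55 in MFP. The differences were -1.98 (SE 0.43) and -2.05 (SE 0.37). Mmp9, a gelatinase, spanned -1.44 to 0.51 in AxLN-LuM and 0.53 to 1.36 in MFP, a gap far smaller than its spread between sub-clones, and Plat, the tissue plasminogen activator, spanned 0.72 to 1.46 in AxLN-LuM and 2.10 to 2.40 in MFP. All AxLN-LuM sub-clones were thus above the parental mean for Plat and still below MFP.

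Milk and mammary differentiation genes were lower in 11 and higher in 2 of 13 members, with a median of -0.39 and 2 lower at an unadjusted p of 0.05. Csn3, kappa casein, had -0.90, -0.26 and 0.32 in AxLN-LuM, against 1.02, 2.27 and 2.87 in MFP, a difference of -2.35 (SE 0.45). The MFP sub-clones stood at 2.84 and 1.41, and no AxLN-LuM sub-clone exceeded 0.30. Esr1, the estrogen receptor, differed by -0.80 with sub-clones at -0.51, 0.25 and -0.72 in AxLN-LuM, against 0.63 and 0.32 in MFP. Xdh, the xanthine dehydrogenase needed for milk fat secretion, was at 1.62, 2.47 and -0.91 in AxLN-LuM and at 2.72 and 2.64 in MFP, so its difference of -1.62 depended on day 43.

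Among antigen presentation genes the widest gap belonged to class II. H2-Ab1, the beta chain of a class II molecule, had log2 levels of -0.39, -0.19 and 0.96 in AxLN-LuM, against 1.19, 2.67 and 3.14 in MFP, with a difference of -2.34 (SE 0.47). Other class II genes were looked up after the value of H2-Ab1 had been seen: H2-Eb1 differed by -0.56, H2-DMa by -0.50 and Ciita, the class II transactivator, by -0.30, each with overlapping arrays. H2-Aa, H2-DMb1 and Cd74 were sought as well and are not reported here. In the class I list, 16 of 20 members were lower and 4 higher, 3 of them lower at an unadjusted p of 0.05, with a median of -0.23. Psmb8, a subunit of the immunoproteasome, spanned 0.32 to 1.863 in AxLN-LuM and 1.865 to 2.15 in MFP, so that the arrays touched. Its partner Psmb9 and the peptide transporter chains Tap1 and Tap2 had differences of -1.11, -1.10 and -1.01. For all 4 genes the day 36 sub-clone was the highest of the AxLN-LuM sub-clones.

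The type I interferon response had a median near 0 that hid a spread between sub-clones. Of 29 members, 10 were higher and 19 lower in AxLN-LuM with a median of -0.08, and Isg20, an interferon-induced exonuclease, alone was higher at an unadjusted p of 0.05, by 0.47. The median level of the list was 0.28, 2.44 and 0.50 at days 14, 36 and 43 in AxLN-LuM, against 1.20 and 1.18 in MFP 1 and 2. Leaving out day 36 gave a median difference of -0.81 with 27 members lower, and leaving out day 14 gave 0.47 with 25 members higher. Cmpk2, an interferon-induced nucleotide kinase, ran from -1.06 at day 14 to 4.46 at day 36 in AxLN-LuM, against 2.51 and 2.32 in MFP.

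The remaining genes on the low side have unrelated roles. Gch1, the rate-limiting enzyme of tetrahydrobiopterin synthesis, had -1.34, -0.44 and 0.52 in AxLN-LuM, against 1.49, 1.75 and 2.16 in MFP. Dzip1, a ciliary basal body protein, had -1.33, 0.45 and 1.25 in AxLN-LuM, against 1.65, 2.26 and 2.72 in MFP, and day 43 was its lowest sub-clone at -1.29. Slc39a4, the intestinal-type zinc importer ZIP4, rested on day 14: that sub-clone stood at -3.21, while days 36 and 43 stood at 1.35 and 1.12 next to 1.44 and 2.26 in MFP 1 and 2. Its difference of -2.10 had an SE of 1.22.

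The 12 genes on the high side had smaller gaps, and several encode cell-surface receptors. Epha4, an ephrin receptor tyrosine kinase, had log2 levels of 0.16, 0.27 and 0.44 in AxLN-LuM, against -2.09, -1.28 and -0.15 in MFP. The AxLN-LuM arrays were tightly grouped, whereas MFP 1 stood at -2.03 and MFP 2 at -0.34, and the difference was 1.48 (SE 0.41, limma unadjusted p = 0.00649). Notch1, a receptor of the Notch pathway, had -0.20, 0.05 and 0.15 in AxLN-LuM, against -0.95, -0.72 and -0.32 in MFP. Plxnb1, the plexin that binds semaphorin 4D, had 0.19, 0.41 and 0.63 in AxLN-LuM, against -0.50, -0.33 and -0.18 in MFP. For Epha4 and Plxnb1 every AxLN-LuM array lay above and every MFP array below the parental mean.

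S100a3, a small calcium and zinc binding protein, had -0.51, 0.03 and 0.71 in AxLN-LuM, against -1.27, -1.18 and -0.97 in MFP. Its difference was 1.14 (SE 0.23, limma unadjusted p = 0.000919), and the MFP sub-clones agreed closely, at -1.17 and -1.13. Of 11 S100 genes, 7 were higher and 4 lower with a median of 0.19, and S100a3 was the 1 with an unadjusted p under 0.05. A pair of ion channels was among the 12 high genes: Ano1, a calcium-activated chloride channel, differed by 0.77, and Kcnn4, a calcium-activated potassium channel, by 0.75. Nradd, a death-domain protein related to the p75 neurotrophin receptor, differed by 0.91, with 1.04 at day 14 and 0.05 and 0.02 at days 36 and 43 in AxLN-LuM, against -0.43 and -0.64 in MFP. Mrgpre, Megf9, Spaca6, Antxr2 and Cfap298 differed by 0.73, 0.67, 0.79, 0.59 and 0.56.

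**Figure D2:**
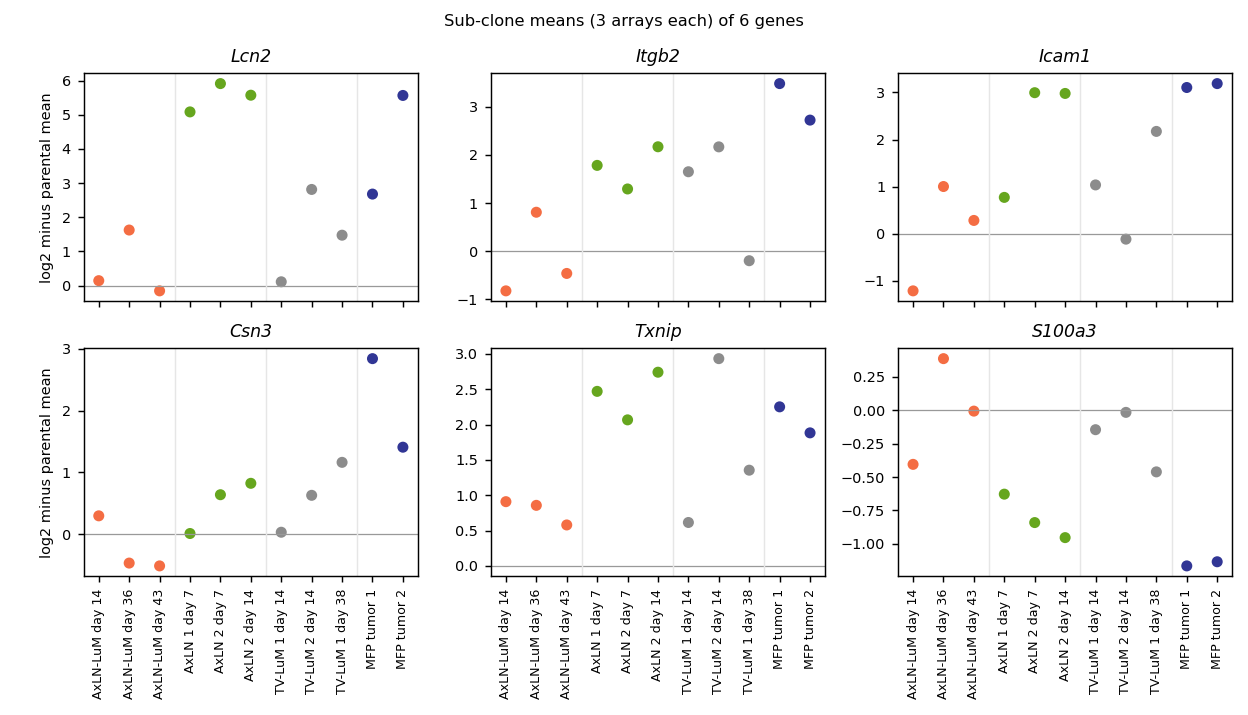
Log2 level (log2 intensity minus the parental mean of the plate, vertical axis) of 6 genes, with 1 point per sub-clone (the mean of 3 arrays) of AxLN-LuM, AxLN (cells from the injected axillary node), TV-LuM (lung metastases of cells injected into the tail vein) and MFP (horizontal axis). Lcn2 lay between -0.16 and 1.63 in AxLN-LuM, against 2.68 and 5.57 in MFP, and S100a3 was lowest in the MFP sub-clones, at -1.17 and -1.13.

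Values from the own parental line gave the move of the AxLN-LuM cells and that of the MFP cells separately, with line and site still tied. For all 12 genes on the low side the MFP cells lay further from GFP/fL than the AxLN-LuM cells lay from mCh/rL: the median own-line difference was -0.16 in AxLN-LuM and 2.23 in MFP. On the high side this held for 10 of 12 genes, with medians of 0.29 in AxLN-LuM and -0.82 in MFP. These genes were chosen for their difference on the same values, and the share over all tested genes is not given. The counts therefore describe the chosen genes only. Arrays did not overlap with both the common and the own-line baseline for 164 lower (1.42%) and 78 higher (0.674%) of all tested genes. Measured against their own lines, 5800 of all tested genes were higher and 5765 lower in AxLN-LuM than in MFP. At an unadjusted p of 0.05, 705 genes (6.1%) were lower and 566 (4.89%) higher, and 1 gene (0.00865%) passed the adjusted test by limma. None of 11565 genes (0%) passed for AxLN-LuM against mCh/rL, where 1310 had an unadjusted p under 0.05 and the lowest adjusted p was 0.14, and 9 (0.0778%), all higher, passed for MFP against GFP/fL. The own-line baseline is a mean of few arrays whose own spread does not enter these errors. With the parental spread in the fit, an alternative added after the data were seen, the counts were 1 gene between the groups, 0 for AxLN-LuM and 34 for MFP. In that fit MFP 1 entered once for each plate, and so as more than 1 replicate.

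**Figure D3:**
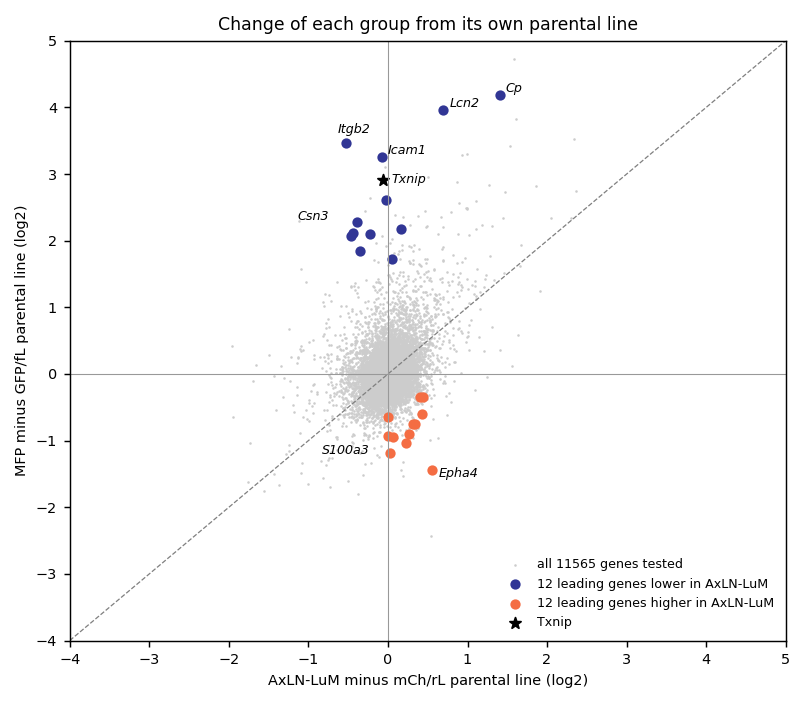
Difference of AxLN-LuM from 4T1-mCh/rL (horizontal axis, log2) and of MFP from 4T1-GFP/fL (vertical axis, log2) for each tested gene, as group means, with the 24 leading genes and Txnip in color and equal differences on the dashed line. The 12 low genes lie between 1.73 and 4.18 in MFP and between -0.53 and 1.40 in AxLN-LuM.

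The gene that passed between the groups was Txnip, which encodes thioredoxin-interacting protein, an arrestin-family inhibitor of thioredoxin and of glucose uptake. It lay at 0.06, 0.003 and -0.24 from mCh/rL at days 14, 36 and 43 in AxLN-LuM, against 3.08 and 2.74 from GFP/fL in MFP 1 and 2. The difference was -2.97 (SE 0.22, limma adjusted p = 0.0083). Against the mean of both lines it was -1.28 (SE 0.22), with arrays at 0.51 to 0.96 in AxLN-LuM and 1.84 to 2.32 in MFP, and so without overlap. The baseline matters for its size because the parental lines themselves differed: Txnip in mCh/rL exceeded that in GFP/fL by 1.67 on the log2 scale. The adjusted p was 0.072 without the day 43 metastasis, 0.0957 without MFP 1 and 0.0501 with only these 5 sub-clones in the fit. Arrdc4, the paralog of Txnip, was looked up after that value had been seen and differed by -1.53 from the own lines, with -0.99, -0.08 and 0.63 in AxLN-LuM against 1.69 and 1.08 in MFP.

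The 9 genes that rose in MFP cells over GFP/fL were Txnip, Tgm2, Itgb2, Hpse, Cebpb, Smox, Itm2c, Arfgap3 and Ccdc159. Tgm2, the crosslinking enzyme transglutaminase 2, rose by 3.11 and Itgb2 by 3.47, while AxLN-LuM lay at -0.04 and -0.53 from mCh/rL. Cebpb, a transcription factor of acute-phase and mammary genes, rose by 1.17 in MFP, with 0.12 in AxLN-LuM. Smox, spermine oxidase, rose by 1.32, with 0.41 in AxLN-LuM. Hpse rose by 2.10, Itm2c by 1.04, Arfgap3 by 0.85 and Ccdc159 by 1.30, beside -0.23, -0.10, 0.07 and -0.18 in AxLN-LuM. These calls rest on few sub-clones: leaving out 1 sub-clone at a time gave between 2 and 142 calls.

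With the 8 parental arrays as replicates and plate in the fit, limma called 1485 of 11565 genes (12.8%) between the parental lines. Of these, 718 were higher and 767 lower in mCh/rL. Arrays of a line share that line's cells, so this count cannot be set against the counts between sub-clones. Of these 1485, 648 had the same sign in AxLN-LuM minus MFP, beside 5584 of all 11565 genes. Among the leading genes, 5 of the 12 low ones and 5 of the 12 high ones were called in that test of the parental arrays. Of these, 2 of the 5 low and 0 of the 5 high ones had the direction of the group difference. The leading genes had to be apart with both baselines, which disfavors genes whose gap follows the parental difference. These counts therefore describe the chosen genes only. Itgb2 was 0.75 higher in mCh/rL, opposite to its difference between the groups, and Lcn2 was 0.33 lower, in the same direction as it.

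The integrated stress response was the list whose median moved most with the baseline. These are targets of the factor ATF4, such as amino acid synthesis enzymes and the regulators Ddit3 and Trib3. Against the common baseline 15 of 26 members were lower and 11 higher in AxLN-LuM, with a median of -0.07. With the arrays titled as removed included 20 were higher and 6 lower. Against own lines, without those arrays, all 26 were lower, 15 with an unadjusted p under 0.05, and the median was -0.72. Median own-line values were -0.55 in AxLN-LuM and 0.07 in MFP, and at the median mCh/rL exceeded GFP/fL by 0.67 over the list, so what separated the readings was the level in the parental lines. Trib3, a pseudokinase induced in this response, was 1.39 higher in mCh/rL and lay at -2.49, -0.76 and -1.26 from it in AxLN-LuM, against 0.34 and 0.23 from GFP/fL in MFP. Ddit4, an inhibitor of mTORC1, was 1.53 higher in mCh/rL and lay at -1.27, -0.75 and -0.13 in AxLN-LuM, against 1.28 and 0.92 in MFP.

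Metabolic and redox genes held single separated members. Car12, a membrane carbonic anhydrase, had log2 levels of -0.92, -0.26 and -0.13 in AxLN-LuM, against 0.65, 0.80 and 1.06 in MFP, while its list of glycolysis and hypoxia genes had 11 of 27 members higher and 16 lower with a median of -0.05. Against own lines 24 of these 27 were lower, 2 of them with an unadjusted p under 0.05, and the median was -0.18. Scd1, the stearoyl-CoA desaturase, had -1.27, -0.94 and -0.26 in AxLN-LuM, against 0.04, 0.32 and 0.53 in MFP, in a list of 25 cholesterol and fatty acid synthesis genes with 11 higher and 14 lower, and with the arrays titled as removed included 2 were higher and 23 lower. Ephx1, a detoxifying epoxide hydrolase, differed by -0.90 and Hmox1, heme oxygenase 1, by -0.79, among 24 glutathione and NRF2 targets of which 7 were higher and 17 lower with a median of -0.13.

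Signaling lists had members on both sides. TGF-beta, BMP and Id genes had 11 of 31 members higher and 20 lower, with 1 each way at an unadjusted p of 0.05, and Tgfbr3, the co-receptor betaglycan, had the widest difference, -1.89, with sub-clones at 1.77, 1.48 and -1.25 in AxLN-LuM against 2.98 and 2.14 in MFP. Wnt, Notch and Hedgehog genes had 21 of 41 higher and 20 lower, with 1 each way at that threshold. Apart from Notch1 these included Jag1, a Notch ligand, at 0.94 and Cdon, a Hedgehog co-receptor, at -0.96. Without the day 43 metastasis the counts were 17 higher and 14 lower for the TGF-beta list and 28 and 13 for the Wnt list.

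Epithelial and mesenchymal genes had small differences for most members. Of 27 epithelial junction and keratin genes 17 were higher and 10 lower, and of 16 mesenchymal genes 6 were higher and 10 lower, with none in either list at an unadjusted p of 0.05. The epithelial count rested on single sub-clones, with 8 higher and 19 lower without MFP 1 and a median of -0.21, against 0.16 with all 5 sub-clones, and within plate 1 it was 11 higher and 16 lower. Single sub-clones did stand apart: Cldn3, a tight junction protein, was at -4.40 in the day 14 metastasis, against 0.62 and -0.97 in the other two and -0.91 and 1.02 in MFP, and Esrp1, an epithelial splicing regulator, was at -2.66 in MFP 1 and 0.28 in MFP 2.

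Other lists of genes tied to spread gave few separated members. Of 39 migration and cytoskeleton genes 17 were higher and 22 lower, and the actin filament proteins Tmod1 and Tpm2 were lower at an unadjusted p of 0.05, with differences of -0.55 and -0.50. The migration list had 8 higher and 31 lower without MFP 1 and 24 higher and 15 lower without MFP 2. Of 23 matrix and matricellular genes 5 were higher and 18 lower with a median of -0.13 and none at that threshold, and without MFP 2 the counts were 12 higher and 11 lower. Col6a1, a chain of collagen VI, stood at 1.27, 1.57 and -1.76 in AxLN-LuM, against 2.57 and 0.93 in MFP. Of 14 genes linked to lung metastasis in human breast cancer 3 were higher and 11 lower, and without the day 43 metastasis 7 were higher and 7 lower. Among them Postn, the matricellular protein periostin, stood at -3.53, 1.23 and 1.80 in AxLN-LuM, against -1.98 and -0.45 in MFP, and Ly6e at -2.19, 2.18 and 0.22 in AxLN-LuM, against 1.61 and 1.89 in MFP. In both genes the day 14 metastasis was the lowest of the 5 sub-clones. Cry2, a repressor of the circadian clock, was 1 of 14 clock genes with an unadjusted p under 0.05, at -0.31, -0.41 and -0.65 in AxLN-LuM, against 0.44 and 0.09 in MFP.

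Proliferation lists depended on the samples included. The median difference was -0.03 over 54 G2/M markers, of which 22 were higher and 32 lower, and 0.04 over 62 S phase and replication genes, of which 40 were higher and 22 lower, with none at an unadjusted p of 0.05. The 12 genes that the study displays for such sub-clones, among them the cell cycle genes Mcm3, Rrm2 and Plk1 and the chromatin genes Hdac11 and Ezh1, had 3 higher and 9 lower, none at that threshold, with differences between -0.34 and 0.13. That list was chosen by the study on these samples. With the arrays titled as removed included, 1 G2/M marker was higher and 53 were lower with a median of -0.43, 5 S phase genes were higher and 57 lower with a median of -0.12, and the 12 displayed genes had a median of -0.44. Without MFP 2 the S phase list had 22 higher and 40 lower. Of 31 histone and DNA modifying enzymes, 21 were higher and 10 lower with a median of 0.06. Kdm5b, a histone H3 lysine demethylase, differed by -0.53 and Tet3, a methylcytosine dioxygenase, by 0.41, and both had an unadjusted p under 0.05.

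**Figure D4:**
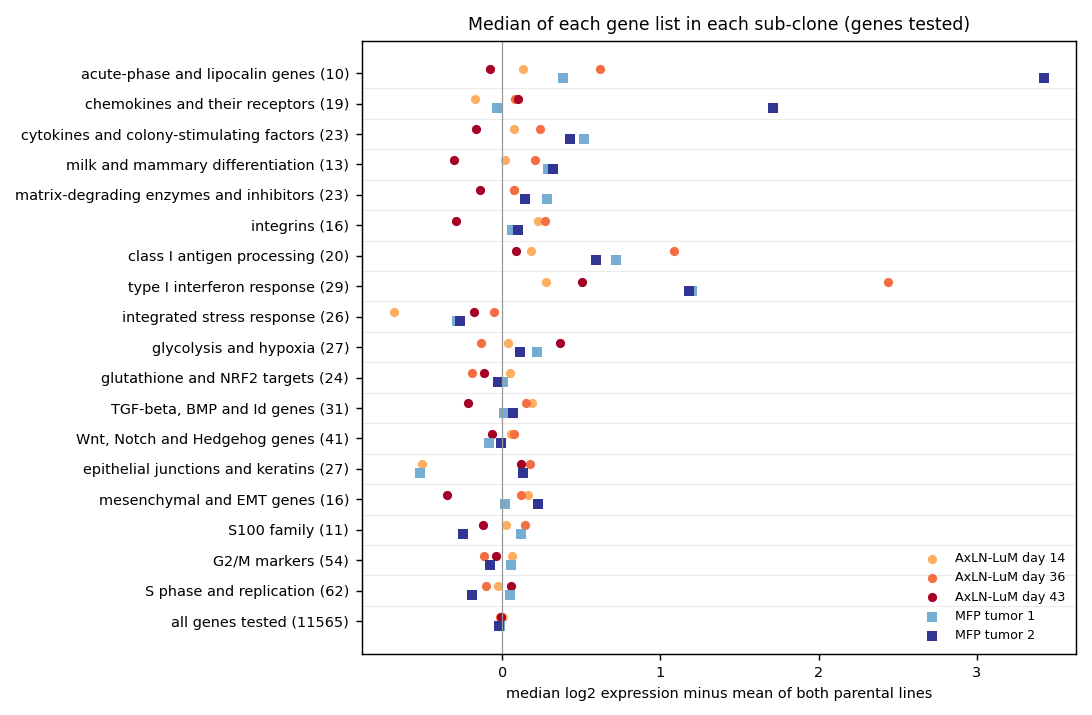
Median log2 level against the mean of both parental lines (horizontal axis) of each gene list (rows, with the number of genes tested) in the 3 AxLN-LuM and 2 MFP sub-clones (points). The acute-phase list stood at 3.43 in MFP 2 and between -0.07 and 0.62 in AxLN-LuM, and the interferon list was highest in the day 36 metastasis among these 5 sub-clones, at 2.44.

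Over all genes, some sub-clones resembled one of the other group more than their own. Across the 11565 genes, the correlation of profiles was 0.62 between the day 36 metastasis and MFP 2 and 0.52 between the day 14 metastasis and MFP 1, against 0.46 between the MFP sub-clones and 0.13, -0.21 and 0.09 between the pairs of AxLN-LuM sub-clones, as a description over genes that share a baseline. The number of genes more than 2-fold from the own line was 446, 306 and 153 at days 14, 36 and 43 in AxLN-LuM, and 527 and 396 in MFP 1 and 2. Of these, 225, 242 and 41 were up in the AxLN-LuM sub-clones and 391 and 351 in the MFP sub-clones.

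Cells recovered from the injected axillary node (AxLN) share the mCh/rL line with AxLN-LuM. The 4 low genes with the largest differences are given for their sub-clones, 2 from day 7 and 1 from day 14. Lcn2 stood at 5.08, 5.91 and 5.57, as high as MFP 2. Itgb2 stood at 1.78, 1.29 and 2.17, Icam1 at 0.77, 2.99 and 2.98 and Csn3 at 0.01, 0.64 and 0.82, each below both MFP sub-clones. In TV-LuM, lung metastases of cells injected into the tail vein, Lcn2 was at 0.11, 2.81 and 1.47, Itgb2 at 1.65, 2.16 and -0.20, Icam1 at 1.04, -0.12 and 2.17 and Csn3 at 0.03, 0.63 and 1.16, so that all but 1 Lcn2 value lay below both MFP sub-clones. Epha4, the first of the high genes, lay between the MFP sub-clones in both groups, at -0.55, -0.89 and -0.71 in AxLN and -0.90, -1.74 and -0.99 in TV-LuM. It was taken by rank and does not stand for the other high genes in these groups. Set against MFP these groups share the MFP samples with the present comparison, so their values are listed side by side and were not compared further. Another AxLN-LuM sub-clone, from day 14 and titled as removed, had Itgb2 at 0.77, Icam1 at 0.32 and Csn3 at 0.02, below both MFP sub-clones, and Lcn2 at 4.59, between them. Its Epha4 level was -1.27, also between the MFP sub-clones, and its Txnip level was 2.96, above both. With the arrays titled as removed included, the own-line difference of Txnip was -2.40 and its adjusted p by limma was 0.458.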

How the data were processed

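The deposited table held linear intensities, which the authors made from Affymetrix Mouse Gene 2.1 ST arrays with Expression Console and RMA, per the labels and the study's methods (versions not given in the sources used here). RMA corrects background, equalizes the intensity distributions of the arrays processed together and summarizes probes. A difference is thus relative to the other genes of an array. Per the study's methods, the plates were then scaled by the ratio of their summed expression and combined. Probe sets with 1 gene symbol (23521 of 41345) were matched to Entrez IDs and kept if protein-coding (20158), and each gene took its brightest probe set. Genes were kept above the 50th percentile of the mean log2 intensity (11565 of 18964). The mean log2 value of both parental lines, or of the group's own line, on the same plate was subtracted, and 3 arrays were averaged per sub-clone. The plates of all 48 arrays were read from the values, by a profile taken from the parental arrays, and matched the order of the columns. For 12 arrays, parental and MFP 1, they also matched the titles, of which the parental ones had defined the profile. Some of these titles name plate 2, and those that name no plate were taken as plate 1. The 7 arrays titled as removed were left out.

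Means per sub-clone of AxLN-LuM (3), MFP (2) and AxLN (3, for the spread) were fitted with limma 3.58.1 in R 4.3.3 (lmFit, eBayes, Benjamini-Hochberg over 11565 genes, threshold 0.05), after a check on simulated data. The number of sub-clones limits the precision. Members, gene lists and named genes were chosen with earlier results of these data known. Named genes were the 12 in each direction with the largest difference whose arrays did not overlap with either baseline, genes called in that comparison, up to 4 members of each list with the largest difference, genes that differed most between baselines, the genes that the study displays, and Itgb2, Csn3, Hpse and S100a3. H2-Eb1, H2-DMa, Ciita, Arrdc4, Tgm2, Smox, Itm2c, Arfgap3, Ccdc159, Isg20, Ptprc, Tyrobp, Pros1, A630001G21Rik and Cyp2c66 were named after their values were seen. Alternatives were other baselines, quantile normalization, other filters, an offset, other summaries per gene, other samples, plates and replicate units, and leaving out each sub-clone. Promoter windows came from RefSeq on GRCm38.p6.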

Additional observations from a re-analysis of the deposited data

Results flagged for a closer look

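The own-line difference of Txnip was larger in MFP than in AxLN-LuM by the test of the difference itself, which was -2.97 between the groups (limma adjusted p = 0.0083). A further 7 named genes had all 9 AxLN-LuM arrays on one side of mCh/rL and all 6 MFP arrays on the other side of GFP/fL, without passing the adjusted test of the difference (limma adjusted p from 0.215 to 0.405). AxLN-LuM was above and MFP below its own line for Epha4 (a difference of 2.00), Spaca6 (1.06), Plxnb1 (0.80) and Antxr2 (0.75). AxLN-LuM was below and MFP above its own line for Nupr1 (-1.48), a stress-induced transcriptional regulator, Ddit4 (-1.82) and Scd1 (-1.47). Among all tested genes 80 (0.692%) had the first pattern and 65 (0.562%) the second.

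Single arrays stood apart in 2 of 184 groups of arrays examined for 92 genes. The rule marks about 1 group in 20 by chance if arrays are independent. Arrays of a sub-clone are not, so the count cannot be set against that rate. For Ephx1 the third array of the day 14 metastasis lay at -0.99, below the other AxLN-LuM arrays. For Kdm5b the first array of MFP 1 lay at 0.50, below the other MFP arrays.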

How the results depend on the processing

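The main limits are the 3 and 2 sub-clones, the reporter line that changes with the site, and the plate. Between AxLN-LuM and MFP, 0 genes were called. The count was 5 with plate as a covariate (Pros1, Itgb2, A630001G21Rik, Itm2c and Txnip). In that fit, and in the fit with the parental spread, MFP 1 entered once for each plate and so as more than 1 replicate. The count was 34 with sub-clones as a random block, 1003 with arrays as replicates and 786 with the replicate block. Against own lines it was 1, with 3 under the filter at the 75th percentile (Txnip, Tgm2 and Itgb2), 0 with only these 5 sub-clones, 0 with removed arrays included, 0 within plate 1, 317 with the random block, 3028 with arrays as replicates and 2696 with the replicate block. The replicate numbers did not pair the arrays (correlations of deviations 0.07, -0.001 and 0.02), and arrays of a sub-clone are not independent. Leaving out 1 sub-clone gave 0 calls each time between the groups, 0 to 2 against own lines, 0 to 3 for AxLN-LuM and 2 to 142 for MFP against their lines. AxLN-LuM against its line gave 1 (Cyp2c66) without the filter, and MFP 34 with the parental spread. Of 92 named genes, 16 changed sign 24 times; the 24 leading genes among them were chosen for arrays that did not overlap, which fixes their sign when samples are left out. Leaving out 1 sub-clone moved Il1a from -4.39 to 1.17, Cxcl5 from -4.08 to 0.28, Ccl17 from -3.85 to 0.09, Cxcl1 from -2.94 to 0.22, Cmpk2 from -2.10 to 0.66, Trib3 from -0.77 to 0.10, Esrp1 from -0.46 to 2.48, Krt17 from -1.91 to 0.05 and Rrm2 from -0.40 to 0.08. Within plate 2 the sign turned for Il1a (2.62), Cxcl5 (1.40), Ccl17 (0.01), Cxcl1 (1.06), Itgb4 (-0.31), Atf3 (0.19), Ddit4 (0.05), Adm (1.36) and Hdac11 (0.03), and with removed arrays for Atf3 (0.15), Ddit3 (0.13), Trib3 (0.36), Hdac11 (0.26) and Ezh1 (0.16). The causes were not tested.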
